A study of Mus musculus with 6 samples.

Results

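A set of 10 transcription factor genes that marks the time at which a neuron is born was followed in preBötC neurons of newborn mice: Onecut1, Onecut2 and Onecut3 (early), Pou2f2, Zfhx3 and Zfhx4 (middle), and Nfia, Nfib, Nfix and Neurod2 (late). They were chosen by name, all 10 were present among the 49568 gene names of each sample, and all 10 passed the filter for testing. The preBötC (preBötzinger complex) is the brainstem site that generates the breathing rhythm. Its neurons were drawn into glass pipettes from slices of Dbx1CreERT2; Rosa26tdTomato mice at postnatal day 2. In these mice an inducible Cre recombinase, driven from the Dbx1 locus, turns on tdTomato fluorescence in cells that descend from Dbx1-expressing progenitors. The Cre was induced by tamoxifen, given to pregnant dams on a set day of gestation. The Dbx1 group holds 3 samples of fluorescent neurons and the non-Dbx1 group holds 3 samples of neurons without fluorescence. Each sample pooled 15 neurons, and each came from a different animal of the same genotype. A neuron of Dbx1 descent in which Cre had not acted would count as non-Dbx1, and a gene present in a few neurons cannot be told apart from a gene present at a low level in all 15.

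In the embryonic hindbrain and spinal cord, neurons from many progenitor domains pass through a shared temporal code. Neurons born early tend to carry Onecut factors, those born next Pou2f2 and Zfhx factors, and those born late Nfi factors and Neurod2. Onecut proteins bind DNA through a cut domain and a homeodomain, Pou2f2 (Oct-2) binds the octamer sequence, Zfhx proteins are very large zinc finger homeodomain factors, Nfi proteins are nuclear factor I family members that also act in the switch to glial fates, and Neurod2 is a basic helix-loop-helix factor of differentiating neurons. Birth dates were not measured in these samples, so early, middle and late name the genes and not the neurons.

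Between 6464675 and 9432958 reads were assigned to genes per sample, a total worked out from the lowest RPKM values. RPKM is reads per kilobase of exon, scaled to the total of reads on genes. Values of a group are given in the order of replicates 1, 2 and 3. The 8 neuronal markers examined (Tubb3, Snap25, Syn1 and others) summed to 1052 to 1764 RPKM per sample. Markers of other cells were present too. The 10 astrocyte and radial glia genes summed to 485.9 to 703 RPKM across Dbx1 samples and 507.5 to 1116 across non-Dbx1 samples, most of it Fabp7 and Aldoc. The 8 oligodendrocyte lineage genes summed to 19.95 to 73.6 and 46.5 to 434, and the 6 microglial genes to 0.202 to 29.2 and 14.1 to 44.4, with Tmem119 at 0 throughout. The 4 cholinergic and motor neuron genes summed to 1.34 to 8.575 and 2.997 to 62.3, and the 6 vessel and blood genes, mostly haemoglobin, to 89.7 to 504.7 and 732.5 to 13950.

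The promoters of the genes whose groups did not overlap (Onecut1 and Pou2f2) and of the most abundant late gene (Neurod2) are shown as regulatory sequence, with motifs in capitals. They come from the RefSeq promoter table of GRCm38.p6 and are printed 5′ to 3′ on the strand of the gene, up to the base before the outermost annotated transcript start in that window. The Onecut1 stretch of 250 bases is chr9:74861671-74861920 on the plus strand, the Pou2f2 stretch of 198 bases is chr7:25132513-25132710 on the minus strand, and the Neurod2 stretch of 247 bases is chr11:98329649-98329895 on the minus strand.
Onecut1: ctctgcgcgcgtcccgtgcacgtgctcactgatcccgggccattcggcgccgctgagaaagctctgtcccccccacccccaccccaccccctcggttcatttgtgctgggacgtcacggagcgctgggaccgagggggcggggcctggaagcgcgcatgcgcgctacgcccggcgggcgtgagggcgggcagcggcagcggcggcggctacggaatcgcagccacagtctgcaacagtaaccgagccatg
Pou2f2: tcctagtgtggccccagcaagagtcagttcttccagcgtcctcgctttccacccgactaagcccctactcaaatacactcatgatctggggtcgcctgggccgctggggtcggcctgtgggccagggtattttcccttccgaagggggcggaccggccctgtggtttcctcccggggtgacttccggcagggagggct
Neurod2: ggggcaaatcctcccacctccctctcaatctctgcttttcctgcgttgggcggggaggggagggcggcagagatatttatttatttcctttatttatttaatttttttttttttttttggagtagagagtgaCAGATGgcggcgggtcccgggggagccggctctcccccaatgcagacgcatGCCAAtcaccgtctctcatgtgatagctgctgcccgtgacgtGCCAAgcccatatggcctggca
Capitals mark CAGATG, an E-box that NeuroD factors can bind, and GCCAA, the reverse complement of the NFI half-site TTGGC. On both strands of the full RefSeq windows (250 bases before to 50 after the start, 9 windows for 6 of the 10 genes), the octamer ATGCAAAT, the Onecut core ATTGAT and the palindromic NFI site had no match, against matches in 1.74%, 7.54% and 0.0365% of all 32851 windows. The half-site TTGGC, which is part of the palindromic site, was found for Neurod2, Nfix and Zfhx3 (46.7% of all windows), and CAGATG for Neurod2, Nfia and Nfix (17.2% of all windows). No match means only that these letters are absent from these windows.

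The Onecut genes were nearly silent in Dbx1 neurons. Every non-Dbx1 sample held reads of at least 2 of the 3, and so did Dbx1 replicate 3, with 18 of Onecut2 and 5 of Onecut3. Onecut1 (ENSMUSG00000043013, chromosome 9 from 74861921 to 74891781 of GRCm38) had an RPKM of 0 in all 3 Dbx1 samples, against 1.347, 0.0678 and 0.738 in non-Dbx1 neurons. These values rest on 45, 3 and 36 reads. The groups did not overlap, but non-Dbx1 replicate 2 only reached the detection floor of 3 reads given below. Reads per gene are the fewest whole numbers that give the deposited values, so for some genes they may be too few, and detection floors too high, by a whole factor. With 3 reads per library as the detection floor (0.0615 to 0.0898 RPKM in a sample, counting error only), the non-Dbx1 mean was at least 9.22-fold higher than the Dbx1 mean, or at least 5.18-fold without non-Dbx1 replicate 1. Onecut1 passed the filter of RPKM above 0 in at least 3 samples through the non-Dbx1 samples alone, so it had to differ in this direction, and no permutation test is given for it.

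RPKM of Onecut2 (ENSMUSG00000045991, chromosome 18) was 0.0345, 0 and 0.101 in Dbx1 neurons, against 0.866, 1.95 and 0.0706 in non-Dbx1 neurons, from 0 to 426 reads. Onecut2 was low in all Dbx1 samples and also in non-Dbx1 replicate 3, which lay between Dbx1 values. Onecut3 (ENSMUSG00000045518, chromosome 10 from 80494835 to 80517276) had reads in Dbx1 replicate 3 only among the Dbx1 samples, at 0.150 RPKM from 5 reads, and measured 0, 2.30 and 0.755 in non-Dbx1 neurons. Each non-Dbx1 sample thus held a different pairing, with Onecut1 and Onecut2 in replicate 1, Onecut2 and Onecut3 in replicate 2, and Onecut1 and Onecut3 in replicate 3 as the 2 highest.

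Summed over the 3 genes, Onecut RPKM was 0.0345, 0 and 0.252 in Dbx1 neurons, against 2.21, 4.32 and 1.56 in non-Dbx1 neurons, without overlap. The sum includes Onecut1, whose direction the filter fixed, so its separation is a description and not a test. Onecut1 supplied 1.347 RPKM of the sum in non-Dbx1 replicate 1 and 0.738 in replicate 3. The sums rest on 7, 0 and 23 reads and on 188, 523 and 87 reads. Mean RPKM was 0.0954 ± 0.137 against 2.70 ± 1.44 (SD, n = 3).

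**Figure D1:**
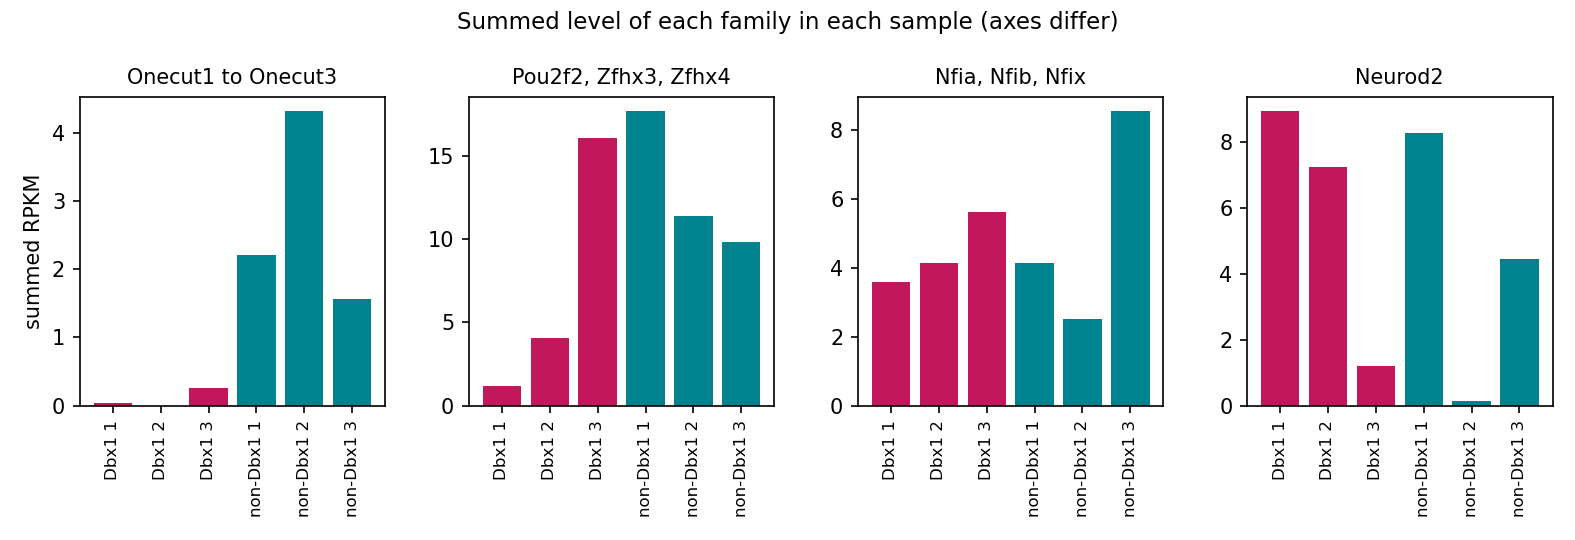
Summed RPKM of each family in each of the 6 samples, as bars from 0 (magenta for Dbx1, teal for non-Dbx1), with a separate vertical axis for each family. The Onecut sum was 0 to 0.252 in Dbx1 samples and 1.56 to 4.32 in non-Dbx1 samples, while the other sums overlapped between the groups. The Onecut sum includes Onecut1, whose direction the filter fixed.

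L2FC is the Dbx1 mean minus the non-Dbx1 mean of log2(RPKM + 1), which understates changes of low genes. It was −0.71 for Onecut1 (standard error 0.302), −0.79 for Onecut2 (0.370) and −0.78 for Onecut3 (0.413). In limma, with Benjamini-Hochberg adjustment over 17614 tested genes, FDR was 0.912, 0.912 and 0.924, so none passed the threshold of 0.1. Exact two-sided permutation tests gave p = 0.20 for Onecut2 and p = 0.40 for Onecut3. On untransformed means, RPKM of Onecut2 was 21.3-fold higher in non-Dbx1 samples. This fold was 10.4 without non-Dbx1 replicate 2, 14.2 without Dbx1 replicate 2 and 55.8 without Dbx1 replicate 3. The Dbx1 mean of Onecut3 (0.0502) lay below its detection floor of 0.0842, and no fold is given.

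Onecut factors are also known in motor neurons, and the motor neuron genes were uneven among the non-Dbx1 samples. The 4 cholinergic and motor neuron genes summed to 2.997, 20.4 and 62.3 RPKM in the non-Dbx1 samples. They summed to 1.34, 2.18 and 8.575 RPKM in the Dbx1 samples. Most of the last value was Slc5a7 (8.52 RPKM) in Dbx1 replicate 3, where the Onecut sum was 0.252. Isl1, a motor neuron determinant, was 13.3 RPKM in non-Dbx1 replicate 3 and 0 in the 5 other samples. Non-Dbx1 replicate 2, with the highest Onecut2 and Onecut3, held Slc5a7 at 10.9, Slc18a3 at 7.60 and Chat at 1.83 RPKM, and replicate 1, with the highest Onecut1, held 2.75, 0.192 and 0.0551 of the same 3 genes. Non-Dbx1 replicate 1 also held most of the oligodendrocyte and haemoglobin signal (434 and 13950 RPKM for the lists), and replicate 2 the vessel marker Cldn5 at 63.7 RPKM. The part of these in the Onecut levels was not tested.

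Pou2f2 (ENSMUSG00000008496, chromosome 7 from 25087344 to 25179726) was detected in all 6 samples and separated the groups without overlap. RPKM was 0.102, 0.228 and 0.557 in Dbx1 neurons, against 1.005, 1.37 and 1.43 in non-Dbx1 neurons, from 9 to 150 reads. The means were 0.296 ± 0.235 and 1.27 ± 0.232 (SD, n = 3), which is 4.29-fold higher in non-Dbx1 samples. With 1 sample left out this fold ran from 3.2 (without Dbx1 replicate 1) to 7.70 (without Dbx1 replicate 3). L2FC was −0.82 (standard error 0.343), with a limma FDR of 0.912 and an exact permutation p = 0.10, the smallest that 3 samples against 3 allow.

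Pou2f2 and Onecut1 were those of the 10 genes whose groups did not overlap, both lower in Dbx1, where 5.24% of the tested genes did so in that direction. The filter fixed the direction of Onecut1, so only Pou2f2 can be read against that share. The unadjusted limma p was 0.0424 for Pou2f2 and over 0.05 for the 8 genes other than Onecut1. The limma p of Onecut1 (0.0458) cannot be read as a test, because the filter fixed its direction. Of the tested genes, 2.48% had a p under 0.05 and were lower in Dbx1, 2.73% were higher, and 5.2% did so in either direction. None of the 10 had an FDR under 0.1, as 0.00568% of all tested genes did, which is 1 gene. The study's Wald test on counts of these samples called other genes at its FDR threshold of 0.1, among them Gata2 and Hif1a. Limma called neither here, so a missing call does not show that levels were equal. With a sample left out, p of Pou2f2 stayed under 0.05 when Dbx1 replicate 3 (0.0382) or non-Dbx1 replicate 1 (0.0386) was dropped, and was 0.0651 to 0.140 without each of the others. For Onecut1 it was 0.0951 to 0.0964 without a Dbx1 sample, and no fit was made without a non-Dbx1 sample.

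That 1 gene, D930028M14Rik, lies inside the annotated span of Pou2f2. It is a long intergenic non-coding RNA gene (ENSMUSG00000074274) on the opposite strand, on chromosome 7 from 25152457 to 25156627, and was singled out after its values were seen. RPKM was 1.26, 0.222 and 0 in Dbx1 neurons, against 47.2, 79.7 and 109 in non-Dbx1 neurons, from 12, 2 and 0 reads and from 365, 816 and 1233 reads. L2FC was −5.75 (standard error 0.464, limma FDR 0.0186). No gene was called lower in Dbx1 without non-Dbx1 replicate 2 or 3, with a pseudocount of 0.1, with genes above 0 in at least 1 sample, with the replicate number as a block, or with voom on recovered reads, so this call was lost there. All 9 coding transcripts of Pou2f2 start at or below position 25132512 on the minus strand, 19.9 kb from the non-coding gene, and only 1 Pou2f2 transcript of the retained intron class reaches across it, from 25179726. The genes share no exon bases in GENCODE vM21. Reads were counted without strand, so the strand of the reads was not seen.

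Within the Dbx1 samples Pou2f2 was lowest in replicate 1, where D930028M14Rik was highest. In Dbx1 replicates 2 and 3 D930028M14Rik lay below its 3-read floor (0.266 to 0.388 RPKM in a sample), so these samples cannot be ordered for it. Within non-Dbx1 neurons both genes were lowest in replicate 1 and highest in replicate 3.

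**Figure D2:**
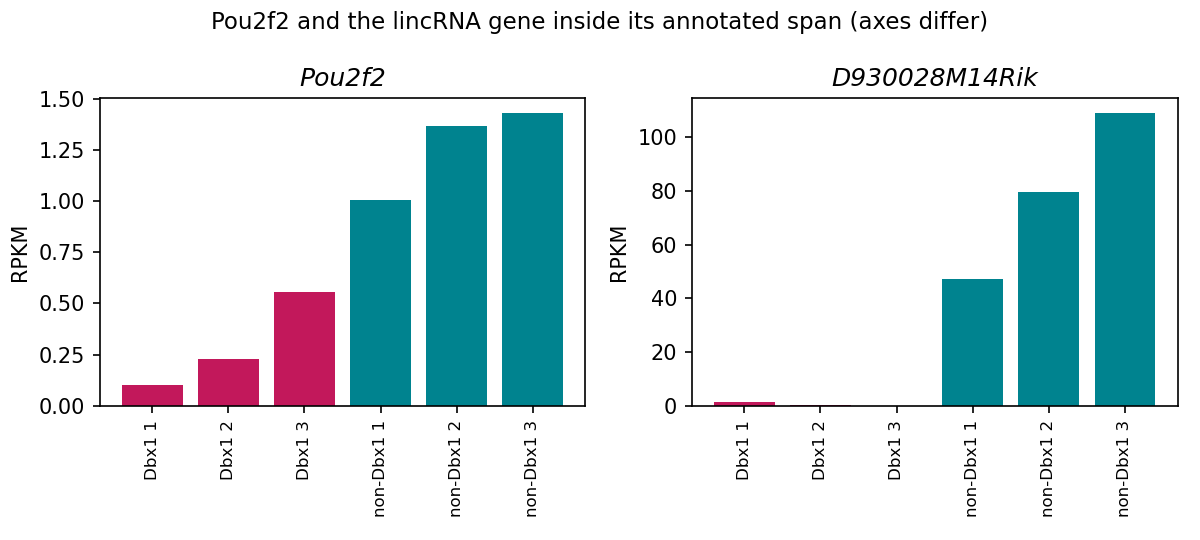
RPKM of Pou2f2 (left) and of D930028M14Rik (right) in each of the 6 samples, as bars from 0 with a separate axis for each gene. Both genes were higher in every non-Dbx1 sample than in any Dbx1 sample, from 1.005 against at most 0.557 RPKM for Pou2f2 and from 47.2 against at most 1.26 RPKM for D930028M14Rik.

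Of the other named genes within 2000 bases of the 10, Gm16551, a non-coding transcript that ends 1787 bases before Onecut1, had RPKM of 0.0162, 0 and 0 in Dbx1 neurons, against 0.0199, 1.14 and 1.13 in non-Dbx1 neurons (L2FC −0.73, standard error 0.319, limma FDR 0.912). Its groups did not overlap, though non-Dbx1 replicate 1, where Onecut1 was highest, held 1 read, as did Dbx1 replicate 1. Trmt1, a tRNA methyltransferase gene next to Nfix on the opposite strand, was also lower in Dbx1 without overlap, at 3.45, 4.95 and 6.17 against 9.85, 8.56 and 7.69 (L2FC −0.75, standard error 0.395, limma FDR 0.924). These neighbours were named after their values were seen, and 5.24% of all tested genes were lower in Dbx1 without overlap. The groups overlapped for the other tested neighbours. L2FC was 0.84 for Gm38042 inside Zfhx3, −0.59 for 2700069I18Rik at Zfhx4 and −0.77 for E130114P18Rik at Nfia. Gm20649, annotated on the same strand as Onecut1 with 2171 shared exon bases, was at 0 in all samples. HTSeq by default gives a read that lies in exons of several genes to none of them. Whether this lowered the RPKM of Onecut1 was not tested.

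For both Zfhx genes the SD of the Dbx1 samples exceeded the difference between group means. RPKM of Zfhx3 (ENSMUSG00000038872, chromosome 8 from 107942644 to 108961630) was 0.848, 2.43 and 9.85 in Dbx1 neurons, against 12.2, 7.69 and 4.28 in non-Dbx1 neurons, from 119 to 1391 reads. Zfhx4 (ENSMUSG00000025255, chromosome 3 from 5218526 to 5415857) measured 0.252, 1.42 and 5.67 and 4.50, 2.31 and 4.11, from 52 to 1023 reads. Both were lowest in Dbx1 replicate 1, low in Dbx1 replicate 2 and within or above the non-Dbx1 range in Dbx1 replicate 3. Group means were 4.37 ± 4.80 and 8.05 ± 3.97 for Zfhx3 and 2.45 ± 2.85 and 3.64 ± 1.17 for Zfhx4 (SD, n = 3). L2FC was −1.05 for Zfhx3 (standard error 0.712, limma FDR 0.936) and −0.73 for Zfhx4 (0.718, 0.951), and exact permutation tests gave p = 0.30 and p = 0.40. The interval of the L2FC (95%, limma) ran from −2.67 to 0.58 for Zfhx3 and from −2.38 to 0.91 for Zfhx4, and so spans both directions.

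The Nfi genes were present in all 6 samples at levels that overlapped between the groups. RPKM of Nfia (ENSMUSG00000028565, chromosome 4 from 97772734 to 98118874) was 0.668, 0.590 and 0.529 in Dbx1 neurons, against 0.642, 0.135 and 0.727 in non-Dbx1 neurons. Nfib (ENSMUSG00000008575, chromosome 4 from 82290173 to 82705750) measured 1.09, 1.21 and 0.649 and 1.94, 0.467 and 2.92. Nfix (ENSMUSG00000001911, chromosome 8 from 84699876 to 84800344) measured 1.83, 2.34 and 4.42 and 1.56, 1.89 and 4.88. The Dbx1 samples sat close together for Nfia, with an SD of 0.0693 against 0.320 in non-Dbx1 neurons, and non-Dbx1 replicate 2 was the lowest of all 6 samples for both Nfia and Nfib.

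L2FC was 0.11 for Nfia, −0.39 for Nfib and 0.08 for Nfix, each smaller than its standard error (0.305, 0.538 and 0.599), with limma FDR of 0.983, 0.962 and 0.993. Exact permutation tests gave p = 0.90, p = 0.50 and p = 0.80. The 95% interval of the L2FC was narrowest for Nfia, from −0.59 to 0.81, and reached from −1.29 to 1.45 for Nfix. Nfi genes are also active in astrocytes. The summed level of the 10 astrocyte and radial glia genes was lowest in Dbx1 replicate 1 (485.9) and highest in non-Dbx1 replicate 3 (1116), where Nfib and Nfix were highest too, but it was 947.5 in non-Dbx1 replicate 2, where Nfia and Nfib were lowest. In that sample most of the sum was Fabp7 (659.5 RPKM) and Aldoc (223.7), with Aqp4 at 8.76, Slc1a3 at 8.72 and Gfap at 0. Gfap was low in all non-Dbx1 samples, at 0.126, 0 and 0.0217 RPKM. The part of glial RNA in the Nfi levels was not tested.

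Neurod2 (ENSMUSG00000038255, chromosome 11 from 98325415 to 98329648) split both groups. RPKM was 8.93, 7.23 and 1.19 in Dbx1 neurons, against 8.27, 0.149 and 4.45 in non-Dbx1 neurons, from 4 to 223 reads. Dbx1 replicate 3 and non-Dbx1 replicate 2 were low, and the 4 other samples lay between 4.45 and 8.93. The means were 5.78 ± 4.07 and 4.29 ± 4.06 (SD, n = 3), L2FC was 0.54 (standard error 0.910, limma FDR 0.969), and an exact permutation test gave p = 0.60. For Neurod2 the L2FC had a 95% interval from −1.54 to 2.62.

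Non-Dbx1 replicate 2 had the highest Onecut2 and Onecut3 and the lowest Nfia, Nfib and Neurod2 of the 6 samples. Its Onecut1 was the lowest of the non-Dbx1 samples, and its Nfix (1.89) lay above that of non-Dbx1 replicate 1 and Dbx1 replicate 1. The mean log2(RPKM + 1) of the 3 Nfi genes minus that of the 3 Onecut genes was −0.37 in that sample, the only negative value. It was 1.08, 1.18 and 1.14 in Dbx1 neurons, against 0.50 and 1.20 in the other non-Dbx1 samples. This difference averaged 1.14 ± 0.0506 in Dbx1 samples and 0.444 ± 0.788 in non-Dbx1 samples (SD, n = 3), and is given as a description.

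**Figure D3:**
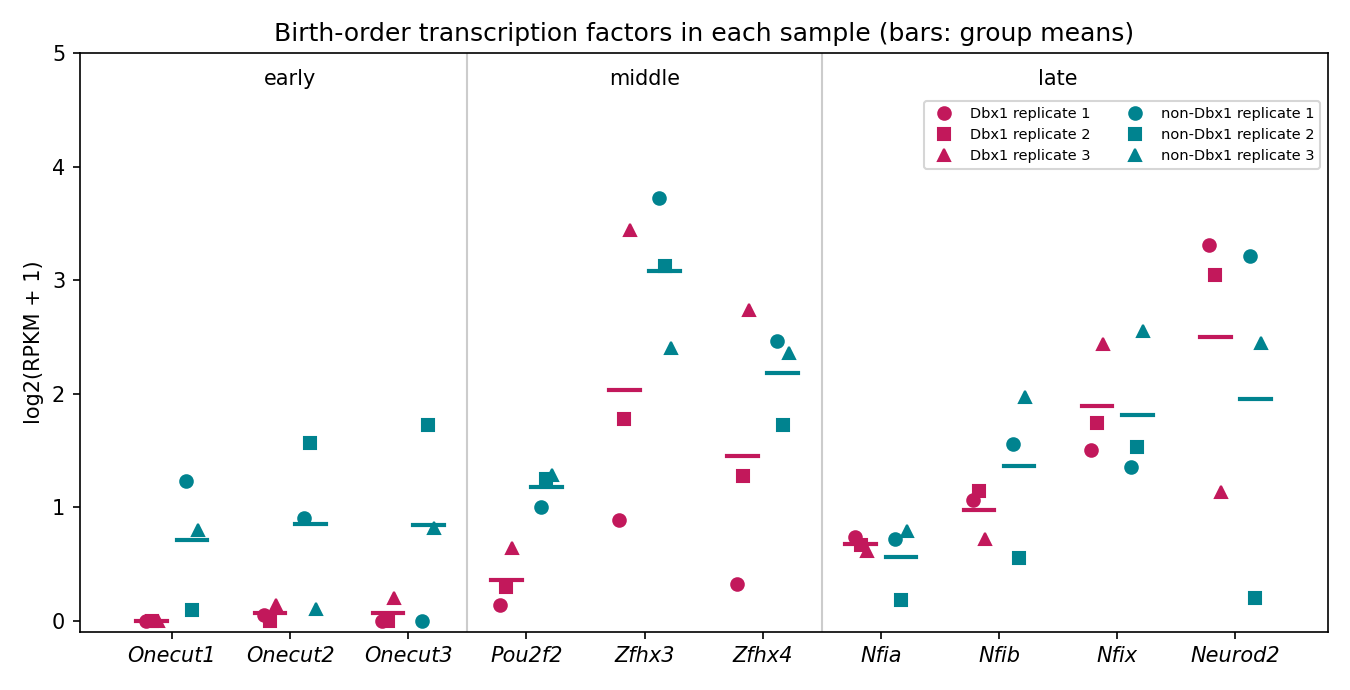
log2(RPKM + 1) of the 10 genes in each sample, with symbols for replicates, colours for groups (magenta for Dbx1, teal for non-Dbx1) and short bars for group means. The Onecut and Pou2f2 values of Dbx1 samples lie at the bottom, no higher than 0.557 RPKM, while the late genes overlap between the groups.

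Mean RPKM over the 6 samples ordered the genes as Zfhx3 (6.21 ± 4.43, SD, n = 6), Neurod2 (5.04 ± 3.73), Zfhx4 (3.04 ± 2.06), Nfix (2.82 ± 1.45), Nfib (1.38 ± 0.915), Pou2f2 (0.783 ± 0.573), Nfia (0.549 ± 0.214), Onecut3 (0.534 ± 0.913), Onecut2 (0.504 ± 0.780) and Onecut1 (0.359 ± 0.564). No neighbours in this order differed beyond their spread. The exact two-sided sign-change test over 6 samples gave the lowest p for Nfix over Nfib (p = 0.0625, higher in 5 of 6 samples, 0.5625 after Benjamini-Hochberg adjustment over 9 pairs). Further apart in the order, Zfhx3 exceeded each Onecut gene in 6 of 6 samples and Nfix exceeded Onecut1 in 6 of 6 and Onecut2 and Onecut3 in 5 of 6. Zfhx3 was higher than 77.1% and Onecut1 higher than 34.2% of the 27067 genes detected in any sample. The highest of the 10 genes was Neurod2 in Dbx1 replicates 1 and 2, Zfhx3 in Dbx1 replicate 3 and non-Dbx1 replicates 1 and 2, and Nfix in non-Dbx1 replicate 3.

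The order also depends on exon length. The length behind each deposited value, recovered with the reads, is the smallest that gives whole reads and may, like the reads, be too small by a whole factor, by which the means with merged lengths would then rise. It was longer than the merged exons of GENCODE vM21 for most of the 10, and shorter for Zfhx3 (17645 against 20976 bases). It was longer by up to 2.54 times for Nfia and 2.46 times for Nfib. For Onecut1 and Zfhx4 it was exactly the sum of their distinct exons, with overlapping exons counted separately. With merged lengths the mean rose to 3.39 for Nfib, 1.39 for Nfia and 5.01 for Zfhx4, and Nfib passed Nfix, Nfia passed Pou2f2 and Onecut2 passed Onecut3. Zfhx3 exceeded Zfhx4 in 6 of 6 samples with the deposited values and in 3 of 6 with merged lengths. Differences between samples for a single gene do not depend on its length, apart from the added 1.

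**Figure D4:**
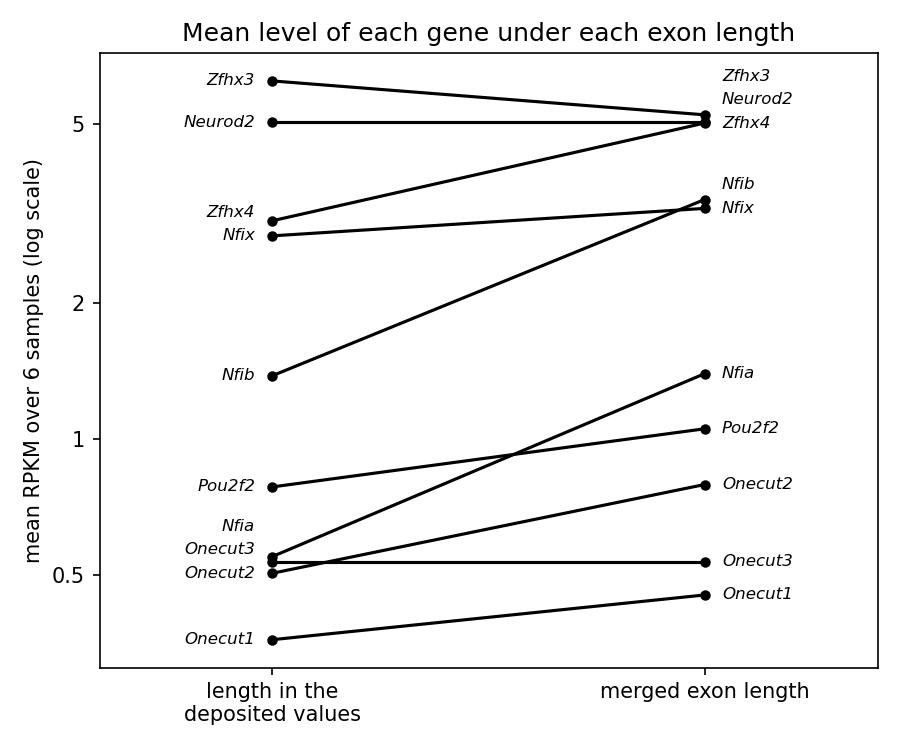
Mean RPKM over the 6 samples (log axis) of each gene with the exon length behind the deposited values (left) and with merged exon length (right), joined by lines. Lines that cross are changes of order, as for Nfib, which moves from 1.38 to 3.39 and passes Nfix.

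Over the 10 genes, L2FC was below 0 for 7, including all 6 early and middle genes. Of these 6, Onecut1 had its direction fixed by the filter. L2FC was above 0 for 3 of the 4 late genes. Without non-Dbx1 replicate 2 those 3 were also below 0, at −0.079 for Nfia, −0.061 for Nfix and −0.34 for Neurod2. Of all tested genes, 49.2% were below 0. The median L2FC was −0.78 over the early genes, −0.82 over the middle genes, 0.095 over the late genes and 0.0089 over all tested genes.

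Relatives from the same gene families were also listed. Of 9 relatives, 7 were tested, none with FDR under 0.1, with L2FC below 0 for 2, above 0 for 5 and a median of 0.26. Cux2, a cut homeodomain factor related to the Onecut genes, was lower in Dbx1 without overlap, at 0.652, 0.160 and 0.736 against 2.29, 0.953 and 2.79 RPKM (L2FC −0.96, standard error 0.476, limma FDR 0.912). Its paralogue Cux1 measured 2.40, 2.54 and 3.46 against 2.51, 3.19 and 3.56. Pou2f1, the widely expressed octamer factor, measured 1.08, 0.752 and 1.59 against 2.07, 1.20 and 0.260, without the separation of Pou2f2. Zfhx2 ranged from 0.457 to 3.94 and Nfic from 1.51 to 4.45 RPKM, and their groups overlapped.

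Neurod1 measured 12.8, 4.33 and 5.74 against 2.83, 1.76 and 7.96 RPKM. Neurod6, which accompanies Neurod2 in late-born neurons, measured 7.955, 5.498 and 0.267 in Dbx1 neurons, against 24.5, 0 and 0.148 in non-Dbx1 neurons. It was high in Dbx1 replicates 1 and 2 and non-Dbx1 replicate 1, the samples where Neurod2 was highest. Neurod4 had no reads, and Pou2f3 had reads in 1 sample, at 0.0869 RPKM.

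Of 12 other transcription factors linked to birth date or subtype, all were tested and none had an FDR under 0.1, with L2FC below 0 for 7 and above 0 for 5 and a median of −0.14. Foxp2 was higher in Dbx1 without overlap, at 0.444, 0.205 and 1.91 against 0.0285, 0.151 and 0 RPKM (L2FC 0.70, standard error 0.349, limma FDR 0.912), where 5.35% of tested genes did so in that direction. Foxp4 was lower without overlap, at 1.09, 1.41 and 1.36 against 1.71, 2.78 and 1.90 (L2FC −0.44, standard error 0.502, limma FDR 0.960).

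**Figure D5:**
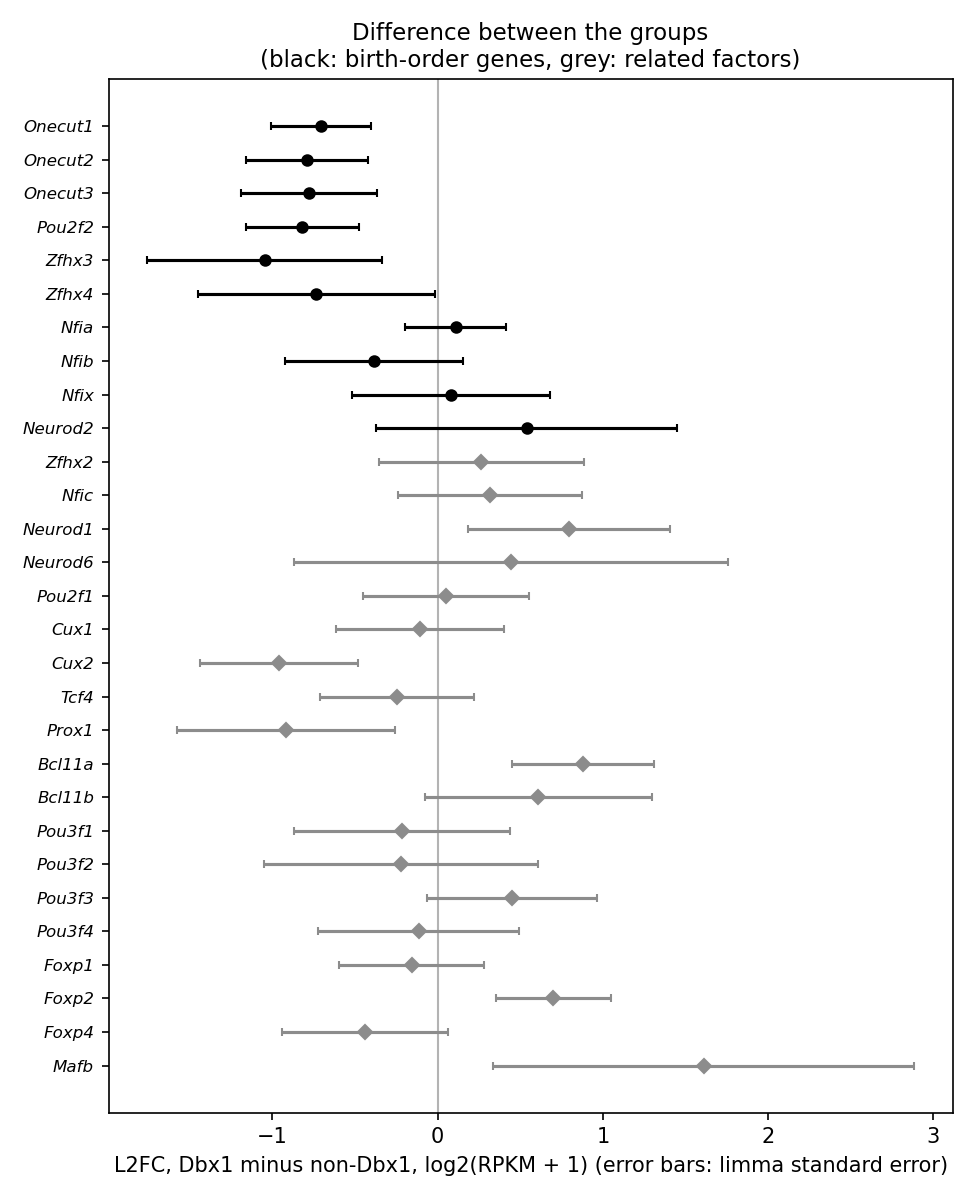
L2FC of the 10 birth-order genes (black circles) and of the tested related factors (grey diamonds), with limma standard errors as bars and 0 as a line. The 6 early and middle genes lie between −1.05 and −0.71, and the late genes between −0.39 and 0.54.

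The genes whose pattern over the 6 samples was most like that of the most abundant gene of each family were ranked by Pearson correlation of log2(RPKM + 1) among 13910 genes with a mean RPKM of at least 1. For Neurod2 they were Vegfb (0.991) and Bhlhe22 (0.986), the latter a basic helix-loop-helix factor of neurons that measured 7.86, 8.90 and 0.516 in Dbx1 neurons, against 8.19, 0 and 3.17 in non-Dbx1 neurons. For Zfhx3 they were Mtf1 (0.991) and Rbm14 (0.987), for Nfix Coa7 (0.991) and Tmem127 (0.989), and for Onecut3 Gm22005 (0.994) and Tekt2 (0.993). With 6 samples, between 94 and 145 of the 13910 genes reached 0.9 for each of the 4, so these likenesses are a description of the samples.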

How the data were processed

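RNA of 6 samples of 15 neurons was amplified with SMART-Seq chemistry and made into Nextera libraries. Per the labels and the study's methods, the authors aligned single-end reads to mm10 with TopHat2, sorted them with SAMtools and counted them per gene name with HTSeq, without strand. The authors deposited RPKM, computed with exon lengths from an Ensembl annotation and not scaled between samples. Tool versions and annotation release were not given in the sources used here. Counts were not used, since RPKM is the unit at hand.

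The total reads of a sample were recovered as the number at which most genes with the lowest values held exactly 1 read (608 to 832 genes per sample), and reads per gene as the fewest whole numbers that give the deposited values. Detection floors of 3 reads cover counting error only, because amplified molecules are not independent. Positions came from GENCODE vM21 (GRCm38, the sequence of mm10), which matched all 10 genes and 95.2% of names.

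Dbx1 and non-Dbx1 samples were compared with limma 3.58.1 (R 4.3.3, eBayes with trend) on log2(RPKM + 1), two-sided, over the 17614 genes that were above 0 RPKM in 3 or more of the samples, with FDR over all of them and a threshold of 0.1. The study tested counts with a Wald test. Single genes used exact permutation tests. The script was tested on simulated data. Other values used Python 3.11.15, numpy 2.4.6, pandas 2.3.3, scipy 1.17.1 and matplotlib 3.10.9.

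The genes, lists and tests were chosen with earlier results of these data known. The rule for named genes took all 10, their relatives, other related factors without overlap, marker genes, and for the most abundant gene of each family the 2 most alike. D930028M14Rik and other neighbours fall outside it. Alternatives were a pseudocount of 0.1, other filters (above 0 in 1 sample, at least 1 in 3 samples), size factors, quantile normalization, no trend, the replicate number as a block, voom on recovered reads (at least 10 in 3 samples), each sample left out, the log2 ratio of means and, added after seeing the data, merged exon lengths.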

Additional observations from a re-analysis of the deposited data

How the results depend on the processing

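Under every alternative run with a test, limma FDR of the 10 genes was 0.745 or more. In these fits L2FC stayed below 0 for Onecut1 (−2.56 to −0.69), Onecut2 (−4.39 to −0.44), Onecut3 (−2.12 to −0.74), Pou2f2 (−2.44 to −0.71), Zfhx3 (−1.75 to −0.47), Zfhx4 (−1.53 to −0.17) and Nfib (−0.79 to −0.08). The log2 ratio of means is a different measure without a test and is left out of these ranges. For Onecut1 the sign was fixed in advance, because its RPKM was 0 in all Dbx1 samples, and no fit was made without a non-Dbx1 sample. The sign turned without non-Dbx1 replicate 2 for Nfia (−0.079), Nfix (−0.061) and Neurod2 (−0.34). For Nfix it also turned when Dbx1 replicate 3 (−0.19) or non-Dbx1 replicate 1 (−0.15) was left out. Leaving out 1 sample gave ranges of −0.079 to 0.22 for Nfia, −0.19 to 0.45 for Nfix and −0.34 to 1.22 for Neurod2.

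The number of the 10 genes with an unadjusted p under 0.05, which was 2 (Onecut1 and Pou2f2), was 1 with a pseudocount of 0.1 (Onecut1), without the trend and with voom (Pou2f2 in both), and 0 with genes above 0 in at least 1 sample, with the filter of 1 RPKM in 3 samples and with the replicate block. The main count includes Onecut1, whose direction the filter fixed. With 1 sample left out the count was 0 to 2, not always of the same genes. Pou2f2 was joined by Zfhx3 (0.0291) without Dbx1 replicate 3 and by Onecut3 (0.0114) without non-Dbx1 replicate 1, and Onecut2 (0.00782) stood alone without non-Dbx1 replicate 3. The 1 gene lower in Dbx1 with FDR under 0.1 over all genes became 0 with a pseudocount of 0.1, with genes above 0 in at least 1 sample, with voom and with the replicate block, and 3 without the trend. Leaving out 1 sample gave 0 to 1 (0 without non-Dbx1 replicate 2 or 3), and 0 to 1 higher in Dbx1. The replicate numbers gave no pairing, since the animals differed and deviations of same-numbered samples correlated by −0.11, 0.025 and −0.052.

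The Nfi minus Onecut level of Dbx1 samples moved from 1.14 to 3.35 with a pseudocount of 0.1 and to 1.65 with merged exon lengths, by construction. Some genes could not be fitted under the stricter filter (6 of 10 tested), with voom (8 tested) or with a sample left out (8 to 10 tested), and gave no value there. Onecut1 and Onecut3 rest on at most 45 and 94 reads in a sample. The folds with a sample left out were also chosen after seeing the data.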
